A study of Mus musculus with 10 samples.

Results

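A set of 34 genes of skeletal muscle was examined in RNA sequencing libraries of mouse brown adipose tissue, a fat that burns fuel for heat. The genes were chosen by name as components of the contractile apparatus, calcium handling and energy supply of muscle fibres. This choice was made with earlier results of these data known. All 34 were found among the 32889 genes of the deposited table. The tissue came from wild-type C57BL/6J mice, and total RNA was sequenced in 10 libraries. Control libraries (n = 4) came from mice on regular chow. Obesity-prone libraries (n = 3) and obesity-resistant libraries (n = 3) came from mice that the labels call prone or resistant to obesity, both on a high-fat diet. The labels give no age, no transgene and no length of feeding, and they do not say how the depot was dissected. Whether each library is a separate animal is not stated in the labels, so p-values measure only the spread between these samples.

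Skeletal muscle fibres contract when calcium released from the sarcoplasmic reticulum lets myosin motors of the thick filament pull on actin of the thin filament. Fast and slow fibres build this machine from different genes. Fast fibres use the myosin heavy chains Myh4, Myh1 and Myh2 with their own light chains and troponins, and slow fibres use Myh7 with another set. Brown adipocytes and muscle fibres share a developmental lineage and several genes of mitochondrial metabolism.

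Total counts lay between 35583997 and 37327770 per library. The brown fat label held in every library, with Ucp1, the uncoupling protein that marks brown adipocytes, at 3785, 5206, 5489 and 6535 FPKM (fragments per kilobase, scaled to library size) in control replicates 1 to 4, 4409, 5220.1 and 1869.5 in obesity-prone replicates 1 to 3 and 5302, 6355 and 5724 in obesity-resistant replicates 1 to 3. Obesity-prone replicate 3 was the lowest. Of 14 brown adipocyte genes listed, 14 passed the filter on low counts, and their summed level was 11613 to 13457 FPKM in control, 7004 to 11449 FPKM in obesity-prone and 11269 to 13093 FPKM in obesity-resistant libraries.

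The share of a library taken by the 34 muscle genes differed widely between libraries of one group, most of all in the control and obesity-resistant groups. It was 0.00815, 0.317, 0.146 and 0.00744% in control replicates 1 to 4, 0.0194, 0.00627 and 0.0287% in obesity-prone replicates 1 to 3 and 0.00807, 0.0799 and 0.279% in obesity-resistant replicates 1 to 3 of all counts. Control replicates 2 and 3 and obesity-resistant replicates 2 and 3 were the highest, and each group also held a library near the lowest value. The mean share was 0.120 ± 0.147% in control (SD, n = 4), 0.0181 ± 0.0113% in obesity-prone (n = 3) and 0.122 ± 0.140% in obesity-resistant libraries (n = 3), and the groups overlapped. A 95% Wilson interval of each share was at most 0.00366 percentage points wide, a width that covers counting error only. Of the summed FPKM, which corrects for gene length, the genes held 0.0134, 0.144, 0.0737 and 0.0102% in control replicates 1 to 4, 0.0161, 0.00902 and 0.0182% in obesity-prone replicates 1 to 3 and 0.0122, 0.0434 and 0.116% in obesity-resistant replicates 1 to 3. In libraries of a whole tissue, fewer muscle cells and less muscle RNA per cell cannot be told apart.

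**Figure D1:**
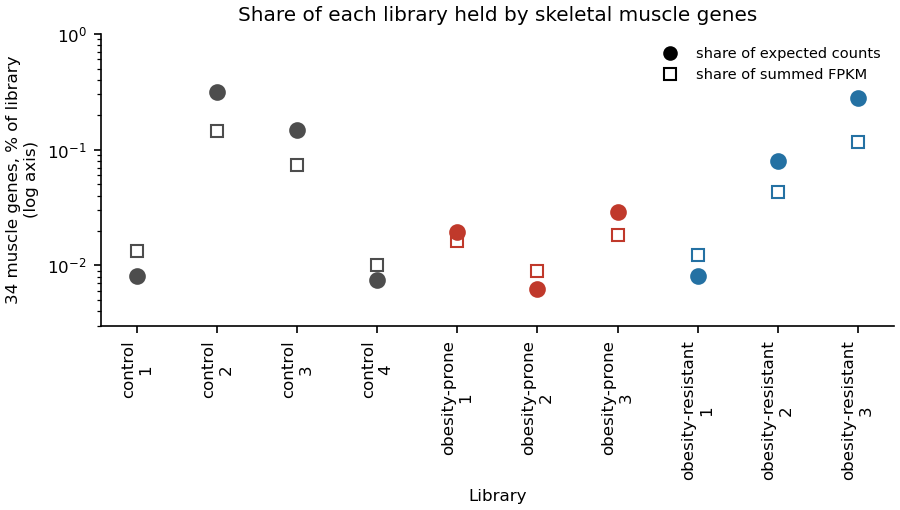
Share of each library held by the 34 skeletal muscle genes, in percent on a log axis, for each of the 10 libraries. Filled circles are the share of expected counts and open squares the share of summed FPKM. The control libraries span 0.00744% to 0.317% of counts, which takes in all obesity-prone and obesity-resistant libraries except obesity-prone replicate 2 at 0.00627%.

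Titin (Ttn, identifier 22138, chromosome 2, 76703980 to 76982557 in GRCm38.p6), the elastic protein that runs along the sarcomere, held most of the muscle counts where these were many. It took 6.78, 55.8, 54.0 and 8.40% in control replicates 1 to 4, 39.3, 8.29 and 42.7% in obesity-prone replicates 1 to 3 and 11.2, 50.5 and 57.8% in obesity-resistant replicates 1 to 3 of them. Counts are not corrected for gene length. Per length Ttn was at 17.5 FPKM in control replicate 2, below Acta1 at 85.7 and Atp2a1 at 58.6 FPKM. In control replicates 1 and 4, obesity-prone replicate 2 and obesity-resistant replicate 1 the gene with the most counts was instead the light chain gene Myl1, with 1556, 953, 847 and 852 counts of 2993, 2715, 2327 and 2947. The plot of all 34 genes by library shows both kinds, with many rows that turn from dark to bright in the same libraries and a few rows of even colour.

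**Figure D2:**
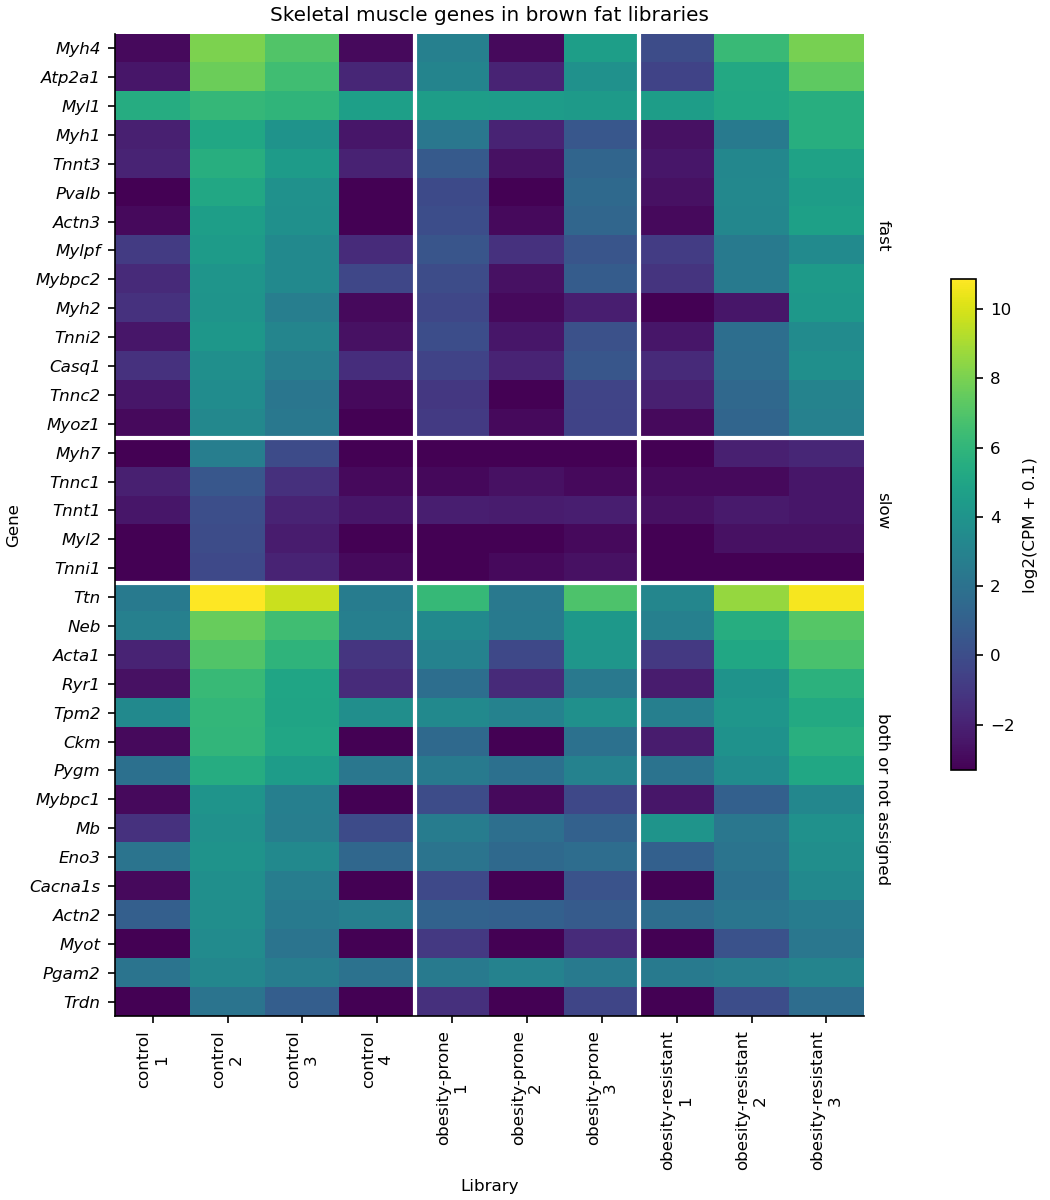
Level of each of the 34 skeletal muscle genes in each library, as log2(CPM + 0.1), with CPM the counts scaled by TMM-normalised library size. Rows are grouped by fibre type and ordered by their highest CPM in any library, and white lines part the groups of libraries and genes. Control replicates 2 and 3 and obesity-resistant replicates 2 and 3 are bright in most fast rows, while Myl1, Tpm2, Eno3, Actn2 and Pgam2 vary less.

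Among the motor proteins of the thick filament, the fast myosin heavy chain Myh4 (identifier 17884, chromosome 11, 67237812 to 67260447) had the widest range of all 29 genes tested, 11.7 on the log2 CPM scale. Its counts were 1, 9102, 4490 and 1 in control replicates 1 to 4, 278, 1 and 952 in obesity-prone replicates 1 to 3 and 32, 2962 and 8964 in obesity-resistant replicates 1 to 3. In 3 libraries it was listed with 1 count, and 2 libraries held the most by far. Myh1, the next fast heavy chain in the same gene cluster (identifier 17879, chromosome 11, 67200102 to 67224577), was at 5, 1184, 553 and 3 counts in control, 187, 6 and 52 in obesity-prone and 2, 210 and 1717 in obesity-resistant libraries. Myh2, the heavy chain of fast oxidative fibres (identifier 17882, chromosome 11, 67171027 to 67197517), was at 11, 562, 231 and 1 counts in control, 27, 1 and 5 in obesity-prone and 0, 3 and 684 in obesity-resistant libraries. Both were highest in obesity-resistant replicate 3, unlike Myh4, which was highest in control replicate 2. The slow heavy chain Myh7 (identifier 140781, chromosome 14, 54970684 to 54994626) had 0, 225, 30 and 0 counts in control, 0, 0 and 0 in obesity-prone and 0, 5 and 7 in obesity-resistant libraries. It was listed at 0 in 6 libraries, and control replicate 2 held most of its counts.

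The makeup of the myosin heavy chain transcripts was read in the 6 libraries with at least 100 counts over Myh4, Myh1, Myh2 and Myh7. Myh4 made up 82.2% and 84.6% of their summed FPKM in control replicates 2 and 3, 56.4% and 94.3% in obesity-prone replicates 1 and 3, and 93.2% and 78.8% in obesity-resistant replicates 2 and 3. Fast chains thus made up nearly all of it in each of these libraries. Myh1 held 38.2% in obesity-prone replicate 1, which rests on 492 counts, against 5.22% to 15.1% in the other libraries. Myh2 held 4.36% to 5.97% in 4 of the libraries, but 0.435% in obesity-prone replicate 3 and 0.0673% in obesity-resistant replicate 2. Libraries with much muscle RNA therefore did not all hold the same mix of fast chains. The heavy chain genes are close copies of each other, and the counting divided shared reads among them by estimation, so low shares beside a high one are uncertain.

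**Figure D3:**
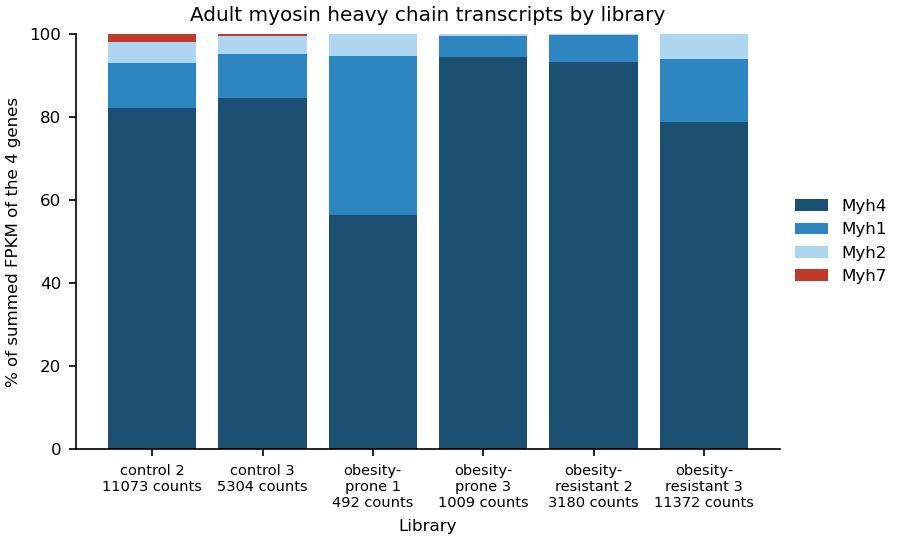
Makeup of adult myosin heavy chain transcripts in the 6 libraries with at least 100 counts over the 4 genes, as percent of their summed FPKM; the number under each bar is the count behind it. Myh4 is the largest part of every bar, Myh1 is widest in obesity-prone replicate 1 at 38.2%, and Myh7 is visible in control replicates 2 and 3 at 2.03% and 0.550%.

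By counts, Myh7 made up 2.03% of the heavy chains in control replicate 2 (95% Wilson interval 1.79 to 2.31%) and 0.566% in control replicate 3 (0.396 to 0.806%). In obesity-resistant replicates 2 and 3 it made up 0.157% (0.0672 to 0.368%) and 0.0616% (0.0298 to 0.127%). The intervals of control replicate 2 and obesity-resistant replicate 3 do not meet, although both libraries were among the richest in heavy chain counts, with 11073 and 11372. In obesity-prone replicates 1 and 3 none of 492 and 1009 counts were from Myh7. A floor of 3 counts allows a share of up to 0.610% and 0.297%, and the Wilson upper bounds are 0.775% and 0.379%. The mean share by FPKM was 1.29% in control (n = 2 libraries with enough counts), 0% in obesity-prone (n = 2) and 0.0961% in obesity-resistant libraries (n = 2).

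The light chains of the same filament behaved in 3 ways. Mylpf, the fast regulatory light chain, was at 0.447, 21.7, 10.3 and 0.241 CPM in control, 1.24, 0.299 and 1.21 in obesity-prone and 0.472, 5.61 and 10.9 in obesity-resistant libraries. It was highest in the 4 libraries richest in Myh4 but did not follow Myh4 in every library. In obesity-prone replicates 1 and 3 Myh4 was at 7.16 and 25.0 CPM, and Mylpf at 1.24 and 1.21 CPM. Myl2, the slow and cardiac regulatory light chain, had 0, 30, 4 and 0 counts in control, 0, 0 and 1 in obesity-prone and 0, 2 and 2 in obesity-resistant libraries, too few to pass the filter. Myl1, the fast essential light chain (identifier 17901, chromosome 1, 66924295 to 66947932), was at 43.5, 68.8, 60.9 and 25.5 CPM in control, 23.7, 23.0 and 20.9 in obesity-prone and 23.7, 35.6 and 47.7 in obesity-resistant libraries. It was present throughout, also in libraries with 1 count of Myh4, and its highest value was 3.29 times its lowest. Per length it was the most abundant of the 34 genes, with a median of 35.5 FPKM over libraries against 8.93 FPKM for the next, Acta1. The myosin-binding proteins Mybpc1 and Mybpc2, which brace the thick filament, reached 16.4 and 20.9 CPM at most.

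On the thin filament, skeletal actin (Acta1, identifier 11459, chromosome 8, 123891758 to 123894775) was at 0.168, 129.7, 58.7 and 0.348 CPM in control, 7.63, 0.734 and 17.1 in obesity-prone and 0.417, 35.3 and 110.4 in obesity-resistant libraries. Mean values were 47.2 ± 61.5 CPM in control (SD, n = 4), 8.49 ± 8.23 in obesity-prone (n = 3) and 48.7 ± 56.2 in obesity-resistant libraries (n = 3), so the standard deviation was about as large as the mean in each group. Beta-tropomyosin (Tpm2), which lies along actin and is made in smooth muscle too, was at 10.6, 65.6, 31.3 and 12.6 CPM in control, 10.4, 7.61 and 13.8 in obesity-prone and 6.89, 17.1 and 39.4 in obesity-resistant libraries. It had the next highest median level per length, 7.36 FPKM, and a floor that did not go below 6.89 CPM. Nebulin (Neb), the ruler of the thin filament, ranged from 5.599 to 189.6 CPM with control replicate 2 highest.

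The troponin genes, which couple calcium to contraction, come in fast and slow pairs. Fast troponin I (Tnni2) was at 0.0838, 18.4, 8.69 and 0.0535 CPM in control, 0.902, 0.0815 and 1.05 in obesity-prone and 0.0834, 3.41 and 11.3 in obesity-resistant libraries. Its slow partner Tnni1 had 0, 27, 6 and 1 counts in control, 0, 1 and 2 in obesity-prone and 0, 0 and 0 in obesity-resistant libraries. Fast troponin T (Tnnt3) was at 0.168, 46.8, 22.1 and 0.161 CPM in control, 1.49, 0.0544 and 2.39 in obesity-prone and 0.0834, 9.39 and 28.6 in obesity-resistant libraries, and slow troponin T (Tnnt1) had 3, 33, 6 and 3 counts in control, 5, 4 and 5 in obesity-prone and 2, 4 and 3 in obesity-resistant libraries. Every fast member was high in the libraries rich in Myh4, and no slow one exceeded 46 counts in any library. Fast troponin C (Tnnc2) was at 0.0838, 11.9, 4.70 and 0.0268 CPM in control, 0.387, 0 and 0.658 in obesity-prone and 0.139, 2.63 and 8.14 in obesity-resistant libraries. Slow troponin C (Tnnc1), which heart muscle also uses, had 5, 46, 10 and 1 counts in control, 1, 2 and 1 in obesity-prone and 1, 1 and 3 in obesity-resistant libraries. Tnnt3 overlaps Prr33 on the opposite strand, and with no strand setting stated their reads may not be told apart.

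All 4 slow partners were a larger part of their pair in control replicate 2 than in obesity-resistant replicate 3, while all 34 genes together held 0.317% and 0.279% of their counts. Tnni1 made up 4.08% of troponin I counts (95% Wilson interval 2.82 to 5.88%) in control replicate 2 and 0 of 414 counts in obesity-resistant replicate 3. For these 414 counts a floor of 3 counts allows up to 0.725%, and the Wilson upper bound is 0.919%. Tnnc1 made up 10.1% of troponin C counts (7.65 to 13.2%) against 1%, and Tnnt1 2% of troponin T counts (1.43 to 2.79%) against 0.287% (0.0976 to 0.840%). For the light chains, Myl2 was 3.86% of the Myl2 and Mylpf counts (2.71 to 5.45%) against 0.5% (0.137 to 1.80%). None of the 5 slow genes passed the filter on low counts, so none was tested between groups. These are single libraries, and the comparison says nothing of their groups.

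The Z-disc, which anchors the thin filaments, showed a split between near relatives. Actn3, the alpha-actinin of fast fibres, ran from 0 to 26.3 CPM and had a correlation of 0.988 with the mean of the other members. Actn2, the alpha-actinin of all fibres and of heart (identifier 11472, chromosome 13, 12269426 to 12340732), was at 1.84, 12.9, 5.70 and 6.85 CPM in control, 2.14, 1.90 and 1.55 in obesity-prone and 3.28, 4.40 and 6.00 in obesity-resistant libraries. Control replicate 4, which had no Ckm count and 1 of Myh4, held more Actn2 than obesity-resistant replicate 3. Myozenin 1 (Myoz1) and myotilin (Myot), which bind alpha-actinin, reached 9.61 and 11.2 CPM, both in control replicate 2.

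Among the genes that release and clear calcium, the fast calcium pump Atp2a1 had the widest range after Myh4. It was at 0.0838, 207, 89.3 and 0.187 CPM in control, 8.48, 0.163 and 14.1 in obesity-prone and 0.611, 38 and 164 in obesity-resistant libraries. The release channel Ryr1 ran from 0.0559 to 76.0 CPM, its voltage sensor Cacna1s from 0 to 13.1 CPM, triadin (Trdn), which anchors that machinery, from 0 to 4.28 CPM and the calcium buffer calsequestrin 1 (Casq1) from 0.163 to 13.4 CPM. Parvalbumin (Pvalb), the calcium buffer of the fastest fibres, was at 0, 36.1, 14.5 and 0 CPM in control, 0.799, 0 and 2.79 in obesity-prone and 0.0556, 9.55 and 23.8 in obesity-resistant libraries. In CPM all 6 were highest in control replicate 2, Casq1 by a small margin (13.43 against 13.40 CPM in obesity-resistant replicate 3, where its FPKM was higher, 7.73 against 7.28), and their correlations with the mean of the other members lay between 0.984 and 0.991.

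The genes of energy supply held both genes that followed the others closely and genes that did not. Muscle creatine kinase (Ckm, identifier 12715, chromosome 7, 19411094 to 19421583), which buffers ATP, was at 0.0279, 64.0, 33.0 and 0 CPM in control, 2.76, 0 and 3.79 in obesity-prone and 0.111, 14.7 and 48.3 in obesity-resistant libraries. Listed at 0 in control replicate 4 and obesity-prone replicate 2, it was at least 785-fold higher in control replicate 2, with the floor set at 3 counts per library. Muscle glycogen phosphorylase (Pygm) ran from 3.66 to 43.9 CPM. Beta-enolase (Eno3), a glycolytic enzyme, was at 4.36, 15.7, 10.4 and 2.52 CPM in control, 4.33, 2.77 and 3.29 in obesity-prone and 1.97, 4.29 and 12.9 in obesity-resistant libraries. The 3 libraries highest in Ckm were the 3 highest in Eno3, in the same order, and the other 7 lay between 1.97 and 4.36 CPM whatever their Ckm level.

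Myoglobin (Mb, identifier 17189, chromosome 15, 77015487 to 77050668), the oxygen store of oxidative fibres, did not keep to the pattern of the other genes. It was at 0.307, 14.2, 6.72 and 0.830 CPM in control, 6.16, 3.53 and 2.03 in obesity-prone and 16.4, 4.75 and 14.1 in obesity-resistant libraries. Its highest value was in obesity-resistant replicate 1, where Ckm had 4 counts and Myh4 32. Per length, Mb stood at 0.319 and 0.297 of the Ckm level in control replicates 2 and 3 and at 0.465 and 0.421 in obesity-resistant replicates 2 and 3. It stood at 3.22 and 0.767 of it in obesity-prone replicates 1 and 3, and at 213 times it in obesity-resistant replicate 1. Gm49540 and Apol6 overlap Mb on the opposite strand.

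Muscle phosphoglycerate mutase (Pgam2, identifier 56012, chromosome 11, 5801637 to 5803796) had the narrowest range of the 29 genes, 1.19 on the log2 CPM scale. It was at 4.22, 9.21, 6.35 and 4.01 CPM in control, 5.36, 7.58 and 5.602 in obesity-prone and 5.34, 6.68 and 8.25 in obesity-resistant libraries. Per length the picture differed, since Pgam2 was at 0.9, 6.65, 3.31 and 0.890 FPKM in control, 1.54, 1.71 and 1.89 in obesity-prone and 1.19, 2.81 and 5.77 in obesity-resistant libraries. The count per FPKM gives the mean transcript length that the authors' estimate used in a library, and for Pgam2 it went from 1323 bases in control replicate 2 to 4619 bases in control replicate 4. The larger value is longer than the span of the RefSeq gene. Of 30 members with such a length in at least 2 libraries, 5 had a ratio of 1.5 or more between their longest and shortest: Pgam2 (3.49), Atp2a1 (2.25), Ttn (2.22), Neb (2.14) and Casq1 (1.97).

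**Figure D4:**
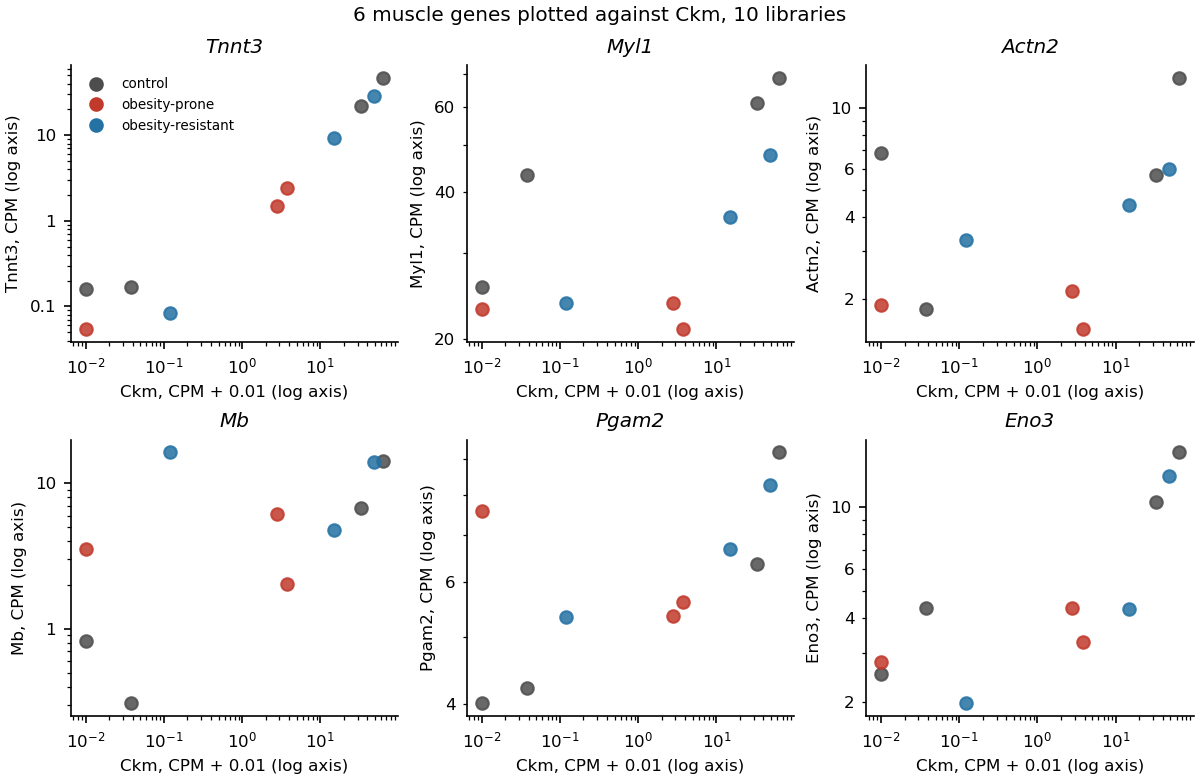
Levels of Tnnt3, Myl1, Actn2, Mb, Pgam2 and Eno3 against Ckm in the 10 libraries, in CPM on log axes with 0.01 added to Ckm; points are libraries, coloured by group. Tnnt3 rises with Ckm, Mb has its highest point (16.4 CPM) where Ckm is near 0, and the 3 obesity-prone libraries (20.9 to 23.7 CPM of Myl1) lie below all 4 control libraries.

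Over the 10 libraries, 22 of the 29 tested genes had a correlation of at least 0.95 (Pearson's r of log2 CPM) with the mean of the other members. The remaining 7 were Actn2 (0.588), Mb (0.591), Myl1 (0.700), Pgam2 (0.713), Myh2 (0.837), Eno3 (0.884) and Tpm2 (0.903). The points share depth, normalisation and the same few muscle-rich libraries, so these values describe the libraries and carry no p-value. The 22 genes come from every functional group, from heavy chains to calcium channels.

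Promoter sequence was read for the members from RefSeq windows of GRCm38.p6, each with 250 bases before and 50 after an annotated start. Windows were found for 27 of the 34 genes, 33 windows in all. Those of Myh4, Acta1 and Ckm are shown because these genes moved together over the libraries, and those of Myl1 and Mb because they did not. Capitals mark each match, on either strand, to the E-box form CAGCTG, to the M-CAT element CATTCC, to the TATA box TATAAA, to the MEF2 site or to the CArG box. The windows lie at Myh4 chr11:67237562-67237861, plus strand, Acta1 chr8:123894726-123895025, minus strand, Ckm chr7:19410844-19411143, plus strand, Myl1 chr1:66945007-66945306, minus strand, Mb, upstream start chr15:77050619-77050918, minus strand, Mb, downstream start chr15:77022738-77023037, minus strand.
Myh4: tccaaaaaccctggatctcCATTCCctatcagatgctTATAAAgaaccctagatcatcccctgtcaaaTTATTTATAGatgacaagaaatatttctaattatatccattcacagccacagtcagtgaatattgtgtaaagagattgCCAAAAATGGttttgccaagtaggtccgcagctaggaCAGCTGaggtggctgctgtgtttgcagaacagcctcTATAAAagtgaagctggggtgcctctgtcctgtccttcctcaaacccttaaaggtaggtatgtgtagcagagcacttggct
Acta1: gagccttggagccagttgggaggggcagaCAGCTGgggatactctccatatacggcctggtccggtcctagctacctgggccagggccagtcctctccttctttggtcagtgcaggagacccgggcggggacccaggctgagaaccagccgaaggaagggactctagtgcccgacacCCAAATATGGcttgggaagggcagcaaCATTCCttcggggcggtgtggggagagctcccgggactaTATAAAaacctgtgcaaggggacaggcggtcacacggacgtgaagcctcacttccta
Ckm: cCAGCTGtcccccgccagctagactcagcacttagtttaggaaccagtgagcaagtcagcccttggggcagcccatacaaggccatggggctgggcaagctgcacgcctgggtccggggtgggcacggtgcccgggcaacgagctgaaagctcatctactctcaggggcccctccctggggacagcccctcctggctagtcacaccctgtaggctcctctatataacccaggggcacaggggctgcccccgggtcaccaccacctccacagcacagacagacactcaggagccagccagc
Myl1: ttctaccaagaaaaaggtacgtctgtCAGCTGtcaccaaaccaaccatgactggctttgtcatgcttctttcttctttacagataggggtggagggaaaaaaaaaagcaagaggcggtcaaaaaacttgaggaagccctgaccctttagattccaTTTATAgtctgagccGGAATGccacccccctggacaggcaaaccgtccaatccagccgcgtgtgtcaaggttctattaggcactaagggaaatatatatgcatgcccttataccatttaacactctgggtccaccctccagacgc
Mb, upstream start: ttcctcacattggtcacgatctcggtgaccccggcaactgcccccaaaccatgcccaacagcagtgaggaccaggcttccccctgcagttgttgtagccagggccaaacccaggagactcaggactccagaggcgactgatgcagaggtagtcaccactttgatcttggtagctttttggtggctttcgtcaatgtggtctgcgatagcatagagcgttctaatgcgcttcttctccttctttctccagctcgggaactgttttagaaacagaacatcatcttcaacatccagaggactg
Mb, downstream start: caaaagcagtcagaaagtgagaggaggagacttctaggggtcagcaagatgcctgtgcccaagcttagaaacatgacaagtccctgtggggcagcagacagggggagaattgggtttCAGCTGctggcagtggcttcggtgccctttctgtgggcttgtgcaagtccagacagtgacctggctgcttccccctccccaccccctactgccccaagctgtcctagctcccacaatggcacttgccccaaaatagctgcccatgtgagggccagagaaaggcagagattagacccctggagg

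The E-box CANNTG, the site of myogenic factors such as MyoD, was in 29 of the 33 windows of these genes (87.9%) and in 72.3% of all 32851 windows. Its form CAGCTG was in 19 (57.6%) against 16.3% of all windows, and in 16 of the 27 genes. Windows of close starts overlap, so the same CAGCTG was counted more than once for Mb and Tnni1. The MEF2 site was in 5 (15.2% against 3.19%), the CArG box in 2 (6.06% against 1.63%), those of Acta1 and Myh4, the M-CAT element CATTCC in 11 (33.3% against 14.7%) and TATAAA in 7 (21.2% against 13.6%). Every CAGCTG is also a CANNTG, and the MEF2 match of Myh4 holds a TATAAA on the other strand. Mb has 3 annotated starts on the minus strand of chromosome 15, at 77050668, 77022787 and 77022727, the upstream one 27881 bases from the next. The window of the upstream start holds none of the marked motifs and that of the next holds a CAGCTG. The deposited values are per gene and do not say which start the Mb reads came from. A match is a description of letters and not a measured site.

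Obesity-prone and control libraries were compared to see how this fat differs where the high-fat diet brings obesity. None of the 29 tested muscle genes was called by edgeR's quasi-likelihood test at an adjusted p below 0.05, where 7% of all 19676 genes were, 3.71% higher and 3.29% lower. At an unadjusted p below 0.05 there were 2 of 29, Actn2 and Myl1, against 28.1% of all genes. DESeq2, run without the edgeR filter but with its own default filtering of adjusted p-values, called those 2 of 34 genes lower. It called 9.26% of the 32715 genes with a p-value, in either direction. Its shares below are also of genes with a p-value. Limma on log2(FPKM + 0.5) called 0 of 29, against 5.21% of all genes. The estimates lay below 0 for 28 of 29 genes, with a median log2 fold change of -3.07 against 0.005 over all genes, and ranged from -4.31 (Myh2) to 0.06 (Pgam2). Their median standard error was 1.85, against 0.195 over all genes. Without control replicate 2 the median was -1.97. In limma on log2(FPKM + 0.5) and log2(FPKM + 0.1), with all libraries, it was -1.04 and -1.16.

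Myl1 was the 1 member, of 29, in which the groups did not overlap, against 20.3% of all genes. Its mean was 49.7 ± 19.3 CPM in control (SD, n = 4), 22.5 ± 1.45 in obesity-prone (n = 3) and 35.6 ± 12 in obesity-resistant libraries (n = 3). The log2 fold change in obesity-prone libraries was -1.14 ± 0.32 (SE, edgeR adjusted p = 0.0589). For Actn2 it was -1.87 ± 0.52 (edgeR adjusted p = 0.0573), with means of 6.83 ± 4.59 CPM in control (SD, n = 4), 1.86 ± 0.295 in obesity-prone (n = 3) and 4.56 ± 1.37 in obesity-resistant libraries (n = 3), and control replicate 1 at 1.84 CPM lay within the obesity-prone range. Both lay close to the threshold, and the call turned on the setting. Without control replicate 4 Myl1 was called (-1.36, edgeR adjusted p = 0.0109), and without control replicate 1 Actn2 was (-2.18, edgeR adjusted p = 0.0312).

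The genes with far larger estimates were farther from the threshold. Ckm had a log2 fold change of -3.47 ± 2.17 (SE, edgeR adjusted p = 0.323) and Myh4 of -3.19 ± 2.38 (edgeR adjusted p = 0.413). The spread within groups, a median SD of 3.25 on the log2 CPM scale over the 29 genes against 0.256 over all genes, was of the size of these estimates. Mb had -0.49 ± 0.99 (edgeR adjusted p = 0.781), and without control replicate 2 its estimate was 0.58. With a muscle score of 24 members as a covariate, an alternative added after the data were seen, 2.99% of all genes were called. That score left out Actn2, Myl1, Mb, Pgam2 and Eno3, picked as unlike the other members in these same libraries. Myh2 stayed in, although its correlation with the other members (0.837) was below that of Eno3 (0.884). Myl1, outside the score by that choice, was at -0.90 (edgeR adjusted p = 0.0465). This call was lost in 8 of 10 fits that each left out 1 library (edgeR adjusted p = 0.0836 to 0.138), all but those without obesity-prone replicate 2 or control replicate 4. The other call, Acta1, was higher in obesity-prone libraries and is part of the score. Macrophage genes had summed levels of 166 to 248 FPKM in control and 189 to 406 FPKM in obesity-prone libraries, with 1 of 8 called higher against 3.71% of all genes. Erythrocyte genes had summed levels of 1434 to 11261 FPKM in control and 4286 to 41511 FPKM in obesity-prone libraries, with 0 of 6 called and a median log2 fold change of 2.04, against 0.98 for the macrophage genes. The part of either in the muscle estimates was not tested.

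Obesity-resistant and control libraries were compared to see how it differs where the diet does not. None of the 29 genes was called by edgeR, where 0.142% of all genes were, and 0 had an unadjusted p below 0.05, against 18.0% of all genes. DESeq2 and limma also called 0 members, against 3.31% and 0.183% of all genes. With the replicate number as a block, 1.94% of all genes were called and 0 of the 29, and the median log2 fold change of the members was -0.68. The estimates lay above 0 for 9 genes and below for 20, with a median of -0.17 against -0.006 over all genes. This sign was not stable, since the median was 1.10 without control replicate 2, 0.37 and 0.01 without obesity-resistant replicates 1 and 2, and -1.53 without obesity-resistant replicate 3. With all libraries it was 0.23 in limma on log2(FPKM + 0.5) and 0.43 on log2(FPKM + 0.1). The groups overlapped in all 29 genes, so 0 stood apart, against 20.2% of all genes. Mb had the largest estimate, 1.09 ± 0.96 (SE, edgeR adjusted p = 0.590), against -0.48 ± 0.32 for Myl1 (edgeR adjusted p = 0.461) and -0.58 ± 0.49 for Actn2 (edgeR adjusted p = 0.574). With 1 library left out, the estimates ran from 0.69 to 2.16 for Mb, from -0.74 to -0.25 for Myl1 and from -0.90 to -0.07 for Actn2, and without control replicate 2 they were 2.16 for Mb and -0.07 for Actn2.

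The comparison of obesity-prone with obesity-resistant libraries set the 2 outcomes of the same diet side by side. None of the 29 genes was called by edgeR, where 0% of all genes were, and 1, Actn2, had an unadjusted p below 0.05, against 15.4% of all genes. DESeq2 and limma also called 0 of the members, against 1.66% and 0% of all genes. All 29 estimates lay below 0, with a median of -3.00 and a median SE of 1.90, against -0.007 and 0.208 over all genes. Without obesity-resistant replicate 3 the median was -1.36. In limma on log2(FPKM + 0.5) and log2(FPKM + 0.1), with all libraries, it was -1.30 and -1.54. Actn2 had a log2 fold change of -1.29 ± 0.54 (SE, edgeR adjusted p = 0.304), and it was the 1 of 29 in which the groups did not overlap, against 19.7% of all genes. Myl1 was at -0.66 ± 0.34 (edgeR adjusted p = 0.373), Mb at -1.58 ± 1.06 (edgeR adjusted p = 0.484) and Ckm at -3.26 ± 2.21 (edgeR adjusted p = 0.491). The comparisons share libraries, so their estimates are not independent of each other.

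**Figure D5:**
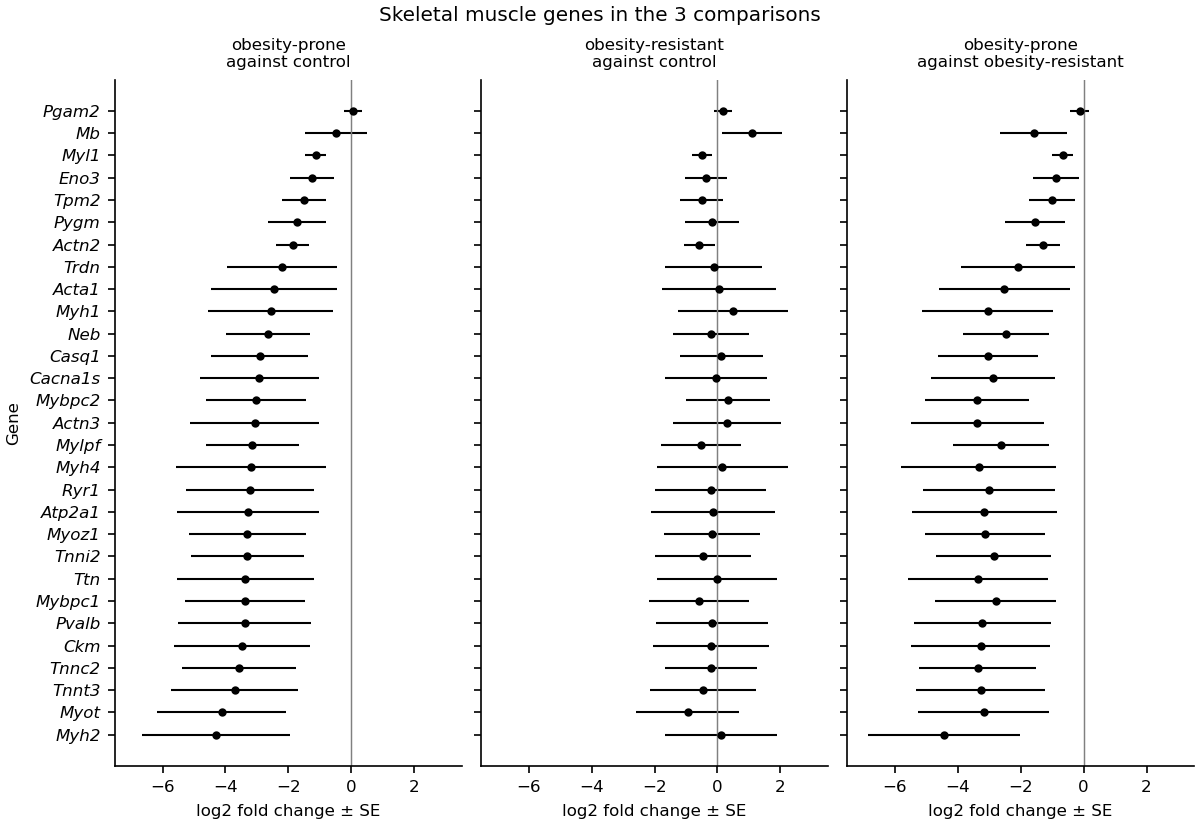
Log2 fold changes of the 29 tested muscle genes in the 3 comparisons; points are edgeR estimates and bars 1 standard error. Most estimates of both comparisons that involve obesity-prone libraries lie near -3 with wide bars, while Myl1, Actn2, Eno3, Tpm2 and Pgam2 have smaller estimates with shorter bars, and edgeR calls no gene in any comparison.

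Other genes of the muscle pathway came from a list of 38 further sarcomere and excitation genes. Of these 33 passed the filter, 16 followed the muscle score (r of at least 0.9 over the 10 libraries, where the score is the mean of the 29 members) and 0 were called in each comparison. The members with the highest median level did not follow it. Tpm1, an alpha-tropomyosin made in many cell types, was at 27.4, 57.2, 34.8 and 35.7 FPKM in control, 45.3, 29.7 and 46.8 in obesity-prone and 23.8, 37 and 42.4 in obesity-resistant libraries, with r = 0.669. Desmin (Des), an intermediate filament of all muscle types, was at 20.04, 32.4, 23.1 and 25.1 FPKM in control, 23.8, 27.4 and 13.4 in obesity-prone and 30.4, 38.8 and 38.2 in obesity-resistant libraries, with r = 0.356. For Tpm3 r was -0.076, and for Jph1, which joins calcium store and cell membrane, 0.748. The median log2 fold change of the 33 was -2.06 in obesity-prone against control, -0.33 in obesity-resistant against control and -1.54 in obesity-prone against obesity-resistant libraries, with 7%, 0.142% and 0% of all genes called.

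Of 11 listed myogenic factors and genes of muscle precursor cells, 9 were found and 2 passed the filter on low counts. Of these 2, 0 followed the score (median r = -0.064). Mef2c, a myogenic factor that other cell types also express, was 1 of them (r = 0.123). Myf6, the myogenic factor of mature fibres, had 0, 21, 5 and 0 counts in control, 1, 0 and 1 in obesity-prone and 0, 3 and 11 in obesity-resistant libraries. Myod1, named after its values were seen, had 11 counts in obesity-resistant replicate 3 and at most 2 in any other library. Developmental isoforms were low, with Myh3 at 17 counts over all libraries and Myh8 between 0.18 and 0.29 FPKM. Myl4, the embryonic and atrial light chain, rose in obesity-prone against control libraries (log2 fold change 1.31, edgeR adjusted p = 0.0266) and did not follow the score (r = -0.037). None of 6 cardiac genes passed the filter, with Myh6 at 36 counts and Tnnt2 at 2 over all libraries. All 7 smooth muscle genes passed, 0 were called in any comparison and 0 followed the score.

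Genes that brown fat and muscle both use stayed mostly apart from the muscle genes. Of 16 tested, 1 followed the score, Ckmt2, the mitochondrial creatine kinase (r = 0.938), with 4, 191, 103 and 3 counts in control, 9, 1 and 10 in obesity-prone and 0, 11 and 115 in obesity-resistant libraries. Fabp3, Gpd1, Cox8b and Pdk4, those with the highest median level, had r between -0.005 and 0.209. In obesity-prone against control libraries Ucp3, an uncoupling protein of muscle and brown fat, fell by 1.48 on the log2 scale (edgeR adjusted p = 0.0114) and Slc25a4, the muscle-type ADP/ATP carrier, by 0.65 (edgeR adjusted p = 0.0491), 2 of 16 against 3.29% of all genes called lower. Among the markers of other cells, 0 of 14 brown adipocyte, 7 nerve, 8 macrophage, 7 endothelial and 6 erythrocyte genes followed the score.

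Outside the 34 genes, 49 of 19647 tested genes (0.249%) followed the score with r of at least 0.9, and 0 had r of -0.9 or below. They were 44 protein-coding genes, 4 long noncoding RNAs (lncRNAs) and 1 gene without a name, and 17 of them were on the lists above. Of the protein-coding genes off the lists, the likest were Klhl31 (r = 0.997), a kelch protein of striated muscle, 3425401B19Rik (0.994), Ano5 (0.991), 1110002E22Rik (0.990) and Ppp1r3a (0.989), which targets a phosphatase to muscle glycogen. Klhl31 was at 0.0279, 10.9, 5.47 and 0 CPM in control, 0.361, 0 and 0.658 in obesity-prone and 0.0278, 2.201 and 6.44 in obesity-resistant libraries. Mylk4 (0.980), Art1 (0.976), Myo18b (0.973), Myadml2 (0.972) and Eef1a2 (0.968), a translation elongation factor of muscle and nerve, came next.

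The series was made to profile lncRNAs, and the 4 that followed the score were Nctc1 (r = 0.996), Prr33 (0.968), 2310065F04Rik (0.962) and Mir1a-1hg (0.926), the host gene of a muscle microRNA. Nctc1 was at 0, 1.88, 0.940 and 0 CPM in control, 0.155, 0 and 0.158 in obesity-prone and 0, 0.644 and 1.40 in obesity-resistant libraries. Prr33 was at 0, 1.51, 0.627 and 0 CPM in control, 0.0773, 0 and 0.0789 in obesity-prone and 0, 0.134 and 0.630 in obesity-resistant libraries, and it overlaps Tnnt3 on the opposite strand. Of the 49 genes 0 were called in each of the 3 comparisons, where 7%, 0.142% and 0% of all genes were. Their number was 39 without control replicate 2 and 39 without obesity-resistant replicate 3, and in both cases those 39 were among the 49. Over all fits that left out 1 library it ran from 39 to 62, the most without obesity-prone replicate 1. With Spearman's rho in place of r, 40 genes followed the score, and 33 of them were among the 49.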

How the data were processed

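Per the labels' protocols, the authors used Bowtie2 2.2.5 to place clean reads on a gene set of the sequencing company, and estimated expression with RSEM 1.2.12. HISAT2 2.0.4 and the build GRCm38.p6 are named in the submitters' processing notes. A strand setting and an annotation release are not given in the sources used here. The deposited table holds expected counts, which are not normalised, and FPKM values computed by the authors. Of the count values 30.4% were not whole, and counts were rounded before testing. Gene positions and promoter windows are from RefSeq's annotation of GRCm38.p6.

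Counts were tested in edgeR 4.0.16 (R 4.3.3) with TMM factors, filterByExpr (minimum count 10) and glmQLFit with robust set, all 10 libraries in the fit and 1 coefficient for each group. P-values were adjusted by Benjamini-Hochberg over the 19676 genes tested, with a threshold of 0.05. CPM uses TMM-normalised library sizes. The filter kept 29 of the 34 members, and Myh7, Myl2, Tnnt1, Tnni1 and Tnnc1 were not tested. The fit was tested on simulated data. Shares have 95% Wilson intervals, and a count of 0 was set at a floor of 3 counts; both cover counting error only. The muscle score is the mean over the 29 members of log2 CPM (prior count 2) minus each gene's mean. Motif matches were counted on both strands.

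Libraries were grouped by their titles. Every member could be named. Values in each library are given for heavy chains, fast and slow pairs, and the 3 members with the highest median FPKM, the widest and the narrowest range, and also for Mb, Actn2, Pvalb and Atp2a1, some of them chosen after their values were seen. Of other lists up to 4 genes with the highest median FPKM are named, or those called, and of genes off the lists the likest 10 coding genes and up to 5 lncRNAs. The members and lists were chosen with earlier results of these data known. Deviations of same-numbered obesity-resistant and control libraries had correlations of 0.149, 0.121 and 0.187 over genes. These lie within the range of unlike-numbered pairs, -0.331 to 0.254. The replicate number is taken from the titles, which do not say that it pairs libraries. The main fit does not pair them, and the number entered as a block only in an alternative. Alternatives were DESeq2 1.42.0, RLE factors, factors without the members, other filters, only the groups compared, a replicate block, limma 3.58.1 on log2(FPKM + 0.5) and log2(FPKM + 0.1), leaving out each library, and, added after the data were seen, the muscle score of 24 members as a covariate.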

Additional observations from a re-analysis of the deposited data

Results flagged for a closer look

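Of the 5 slow fibre genes, 3 stood away in control replicate 2 from the other control libraries. Myh7, the slow myosin heavy chain, was at 6.51 CPM there and at 0.855 CPM in the next control library. Myl2, the slow regulatory light chain, was at 0.868 CPM against 0.114 CPM, and Tnnt1, slow troponin T, at 0.955 CPM against 0.171 CPM. In each case the gap to the nearest library was larger than Dixon's 95% limit for 4 samples. Tnni1 (0.782 against 0.171 CPM) and Tnnc1 (1.33 against 0.285 CPM) were also highest there but did not pass this limit. Chance alone sets apart about 1 in 20 groups of independent values, and only the control group has enough libraries for this check. The 3 genes were flagged in the same library, so they do not count as 3 separate results. In the next control library, control replicate 3, Myh7, Myl2 and Tnnt1 had 30, 4 and 6 counts. Control replicate 2 also held the largest share of muscle counts, 0.317%, and the part of that share in these values was not tested.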

How the results depend on the processing

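The count of 0 muscle genes called in obesity-prone against control libraries was 2 with DESeq2 (Actn2 and Myl1, both lower). It was 2 with the muscle score as a covariate (Acta1 higher, Myl1 lower) and 0 to 1 when each library was left out. With the replicate block it was 1 (Myl1, log2 fold change -1.32, edgeR adjusted p = 0.022, with 8.04% of all genes called). Deviations of same-numbered libraries of these groups had correlations of -0.086, -0.104 and -0.146 over genes. Whether such libraries share an origin is not stated in the titles and was not tested. The block changed no call in the other comparisons, where the members called stayed at 0 under each setting, and in obesity-resistant against control libraries it moved the number of all genes called from 28 to 382 and the members' median from -0.17 to -0.68. With the covariate the median log2 fold change was 0.27 in obesity-prone against control and 0.11 against obesity-resistant libraries, and the estimates of Ckm (1.03 and 0.56) and Myh4 (1.47, against control) turned positive. The covariate is built from 24 of the 29 members, Ckm, Myh4 and Acta1 among them, so a median near 0 is set by construction. The sign of Mb in obesity-prone against control libraries turned in limma on log2(FPKM + 0.5) (0.38, also without a filter), log2(FPKM + 0.1) (0.62), without control replicate 2 (0.58; range over libraries left out -0.99 to 0.58) and with the covariate (0.57); the cause was not tested. Without the 5 members with the highest counts the mean share of obesity-prone libraries was 0.0059%, by construction. Read from troponin I, the slow share was 1.68% in obesity-prone and 0% in obesity-resistant libraries, in place of 0% and 0.0961% from myosin, and rests on few counts. In all 238 of 252 values of named genes kept their direction and their side of the threshold. Of 166 other values, 156 counted as kept, under rules that allow some movement. For mean shares the rule allowed a move of less than the group's SD. For medians it used the pooled SD of the muscle score within groups (3.43 in control, 1.65 in obesity-prone, 2.88 in obesity-resistant libraries). Moves of the obesity-resistant against control median from -0.17 to 1.10 or -1.53 therefore counted as kept. These counts do not show that the medians are stable. Depth limits the slow genes and the shares of libraries with few muscle counts.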
